A study of Mus musculus with 12 samples.

Results

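The genes described here were lower in mouse macrophages 4 h after lipopolysaccharide (LPS, a component of the outer membrane of Gram-negative bacteria) when the cells met it for the first time or after a long rest, and were much less reduced when the cells had met it shortly before. They were chosen from measured values on single-colour microarrays. A gene belonged when its brightest probe was well above background on all 3 untreated arrays and 3 differences of group means held on the log2 scale: acute minus untreated at most -2, recovered minus untreated at most -1.5, and tolerant minus acute at least 1.5. Of 35482 gene names on the array, 19417 met the background requirement and 134 met all 3 differences. Names beginning with chr, Slc, Zfp, Gpr, Trim or Rab, and Bmf, Irf2bp2 and Sesn1, were set aside, which removed 22 and left 112 genes.

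All cells were bone marrow-derived macrophages of female C57BL/6 mice aged 6 to 8 weeks, grown for 7 days in medium conditioned by L929 cells, a fibroblast line that secretes macrophage growth factor. Untreated cells received no LPS, and acute cells received it for 4 h. Tolerant cells received LPS for 8 h, rested for 16 h and received it again for 4 h. For recovered cells the pause lasted 88 h, as the sample descriptions state (the protocol says 2 to 4 days), and the first and last exposures were equally long. Each of the 4 groups had 3 arrays from 3 independent experiments. Cells kept untreated for the longer schedule, or rested without the second LPS, were not analysed here, so time in culture and LPS history cannot be told apart.

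LPS binds Toll-like receptor 4 and, besides inducing cytokines, lowers the RNA of many genes that resting macrophages express. Cells exposed again within about a day respond differently, a state called endotoxin tolerance in which many cytokine genes are induced less. The fall of an RNA after a stimulus can come from less transcription, faster decay or both, and arrays do not separate these.

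Values are log2 spot intensities minus the 75th percentile of the array, so 0 marks that percentile and negative levels are dimmer. From 47.83% to 54.99% of spots per array exceeded background by the scanner software's test. Differences carry the standard error (SE) of a limma fit to all 12 arrays. Of the listed macrophage markers, 9 of 10 were measured, and Csf1r, the receptor for macrophage growth factor, differed from untreated by -0.07 ± 0.13 (SE) in acute, 0.45 ± 0.13 in tolerant (adjusted p = 0.0345) and 0.60 ± 0.13 in recovered cells (adjusted p = 0.00464). Of those 9, 1, 2 and 4 were called higher than untreated in the same groups and 0 lower. Over all genes 14.3%, 11.3% and 18.5% were called higher there, and 15%, 8.63% and 16.9% lower. Tnf, Il6 and Cxcl10, classic LPS-induced genes, rose in acute cells by 4.75 ± 0.23, 9.95 ± 0.63 and 9.91 ± 0.24, and tolerant cells differed from acute cells by -2.03, -2.27 and -1.57. Of the markers of lymphocytes, neutrophils, dendritic cells, stromal cells and blood lineages, 3 of 9, 3 of 8, 3 of 7, 4 of 8 and 2 of 8 were measured. The neutrophil genes S100a8 and Camp were above untreated by 2.61 ± 0.33 and 2.25 ± 0.26 in tolerant cells (adjusted p = 0.00025 and 0.000133) and by 1.5 ± 0.33 and 1.66 ± 0.26 in recovered cells, while Elane was not called. The dendritic cell gene Zbtb46 was above untreated by 5.31 ± 0.32, 4.15 ± 0.32 and 5.34 ± 0.32 in acute, tolerant and recovered cells. The stromal gene Pdgfrb, not well above background in untreated cells, was at least 9.09-fold, 20.7-fold and 23.6-fold higher in those groups. Of the 3 dendritic cell genes measured, 1, 2 and 1 were called higher in acute, tolerant and recovered cells and 0 lower. Of the 4 stromal genes 2, 1 and 2 were called higher and 0 lower. The 3 neutrophil genes had 1, 2 and 2 called higher and 0 lower. In recovered cells 1 of the 3 lymphocyte genes was called lower and 1 of the 2 blood lineage genes higher. No other call against untreated was made in those lists. The shares over all genes are as above. The part of other cells in the results was not tested. In such bulk RNA, fewer cells of a type and less RNA per cell cannot be told apart.

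RefSeq promoters (assembly GRCm38.p6, 250 bases before to 50 after a transcript start) were found for 84 of the 112 genes. Those of 6 genes are printed 5′ to 3′ because Vgll4 and Bbs12 mark the group, Fut7, Narf and Tesk2 are among the 10 genes with the largest tolerant minus acute difference, and Frat1 had the largest acute decrease. Capitals mark matches, on either strand, to TGTTTAC (forkhead), GGAATG (TEAD), TGACTCA (AP-1), TGACGTCA (CRE), CACGTG (E-box), CCGGAAG (ETS), GGGCGG (SP/KLF), TTGCGCAA (C/EBP) or GAGGAAGT (PU.1). The Vgll4 window lies at chr6:114969154-114969453 on the minus strand, and the others on plus strands at chr3:37312304-37312603 (Bbs12), chr2:25422992-25423291 (the first of 2 for Fut7), chr11:121236986-121237285 (Narf), chr4:116720705-116721004 (Tesk2) and chr19:41829720-41830019 (Frat1).
Vgll4: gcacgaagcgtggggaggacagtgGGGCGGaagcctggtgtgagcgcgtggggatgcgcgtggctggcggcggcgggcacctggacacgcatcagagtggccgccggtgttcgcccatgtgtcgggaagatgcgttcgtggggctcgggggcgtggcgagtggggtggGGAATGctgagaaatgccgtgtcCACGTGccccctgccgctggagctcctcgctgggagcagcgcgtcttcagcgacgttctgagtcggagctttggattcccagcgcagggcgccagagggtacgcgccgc
Bbs12: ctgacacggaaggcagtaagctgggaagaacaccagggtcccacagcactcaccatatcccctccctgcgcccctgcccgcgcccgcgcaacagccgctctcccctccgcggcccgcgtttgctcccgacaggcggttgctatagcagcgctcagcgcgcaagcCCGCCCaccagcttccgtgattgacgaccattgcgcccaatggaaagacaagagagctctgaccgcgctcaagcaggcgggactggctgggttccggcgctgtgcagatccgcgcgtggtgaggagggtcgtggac
Fut7: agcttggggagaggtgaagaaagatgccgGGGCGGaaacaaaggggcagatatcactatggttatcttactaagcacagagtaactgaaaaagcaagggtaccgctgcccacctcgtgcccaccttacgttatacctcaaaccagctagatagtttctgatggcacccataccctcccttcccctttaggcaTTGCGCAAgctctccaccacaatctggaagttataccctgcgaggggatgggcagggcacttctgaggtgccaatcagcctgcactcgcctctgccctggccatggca
Narf: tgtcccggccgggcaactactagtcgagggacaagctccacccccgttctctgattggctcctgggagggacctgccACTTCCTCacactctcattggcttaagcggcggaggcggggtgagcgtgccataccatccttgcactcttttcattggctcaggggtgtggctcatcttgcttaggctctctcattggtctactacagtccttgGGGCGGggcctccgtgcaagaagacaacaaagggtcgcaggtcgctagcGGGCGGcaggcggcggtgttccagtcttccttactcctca
Tesk2: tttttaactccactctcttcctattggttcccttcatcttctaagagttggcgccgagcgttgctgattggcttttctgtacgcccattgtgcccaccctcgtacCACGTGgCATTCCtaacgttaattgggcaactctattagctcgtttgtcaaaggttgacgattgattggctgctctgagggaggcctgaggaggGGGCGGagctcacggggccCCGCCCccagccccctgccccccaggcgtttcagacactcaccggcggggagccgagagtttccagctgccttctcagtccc
Frat1: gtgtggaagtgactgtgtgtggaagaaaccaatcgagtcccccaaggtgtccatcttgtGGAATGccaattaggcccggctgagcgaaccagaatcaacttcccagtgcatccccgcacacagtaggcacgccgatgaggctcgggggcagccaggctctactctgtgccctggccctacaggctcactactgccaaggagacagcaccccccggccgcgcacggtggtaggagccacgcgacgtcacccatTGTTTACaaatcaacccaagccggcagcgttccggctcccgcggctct

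The Vgll4 window held a TEAD, an E-box and an SP/KLF match, and Tesk2 held the same 3 kinds. Bbs12 held an SP/KLF match only. Fut7 was the only one of the genes with a C/EBP match, and Frat1 the only one with a forkhead match, among the 9 motifs and 111 promoters searched. Over those 111 promoters, 64% held the SP/KLF letters, against 57.5% of the promoters of all genes tested and 35.7% of the whole table. TEAD letters were in 12.6%, 12.4% and 14.7% of the same 3 sets, and E-box letters in 15.3%, 9.53% and 7.15%. PU.1 letters were in 8.11%, 3.23% and 3.2%, ETS letters in 10.8%, 16.1% and 8.86%, AP-1 letters in 5.41%, 4.12% and 5.2%, and CRE letters in 2.7%, 2.85% and 1.79%. Forkhead letters were in 0.901%, 2.67% and 3.65%, and C/EBP letters in 0.901%, 0.28% and 0.183%. The median of the 111 promoters was 19 CpG dinucleotides, the same as that of the promoters of the genes tested. These matches are descriptions, and several genes contributed more than 1 promoter. Windows of the same gene could overlap, as for BC031353, where the same PU.1 and E-box letters were counted in both overlapping windows.

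Across the 112 genes, the acute minus untreated difference had a median of -2.80 and ran from -5.32 to -2.02, against a median of 0.02 over the 20491 genes tested. The recovered minus untreated difference had a median of -2.48, and the tolerant minus acute difference a median of 1.91 with a range of 1.51 to 3.44. These 3 differences chose the genes and were not tested. limma called 15% of all genes lower and 14.3% higher in acute than untreated cells, 16.9% lower and 18.5% higher in recovered than untreated cells, and 12% higher and 10.6% lower in tolerant than acute cells. At the acute threshold, Zbtb1 (-2.02) and ENSMUST00000032967 (-2.02) lay just inside, and AI426330 (-1.99) and Nfam1 (-1.98) just outside. At the recovered threshold, A130010J15Rik (-1.54) and 1810034E14Rik (-1.55) lay inside, and Klhl36 (-1.42) and Sh2b2 (-1.39) outside. At the tolerant threshold, Rassf2 (1.51) and D230044B12Rik (1.52) lay inside, and XM_001480574 (1.49) and Agfg2 (1.48) outside. A further 167 genes met the acute and recovered thresholds but not the tolerant one.

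**Figure D1:**
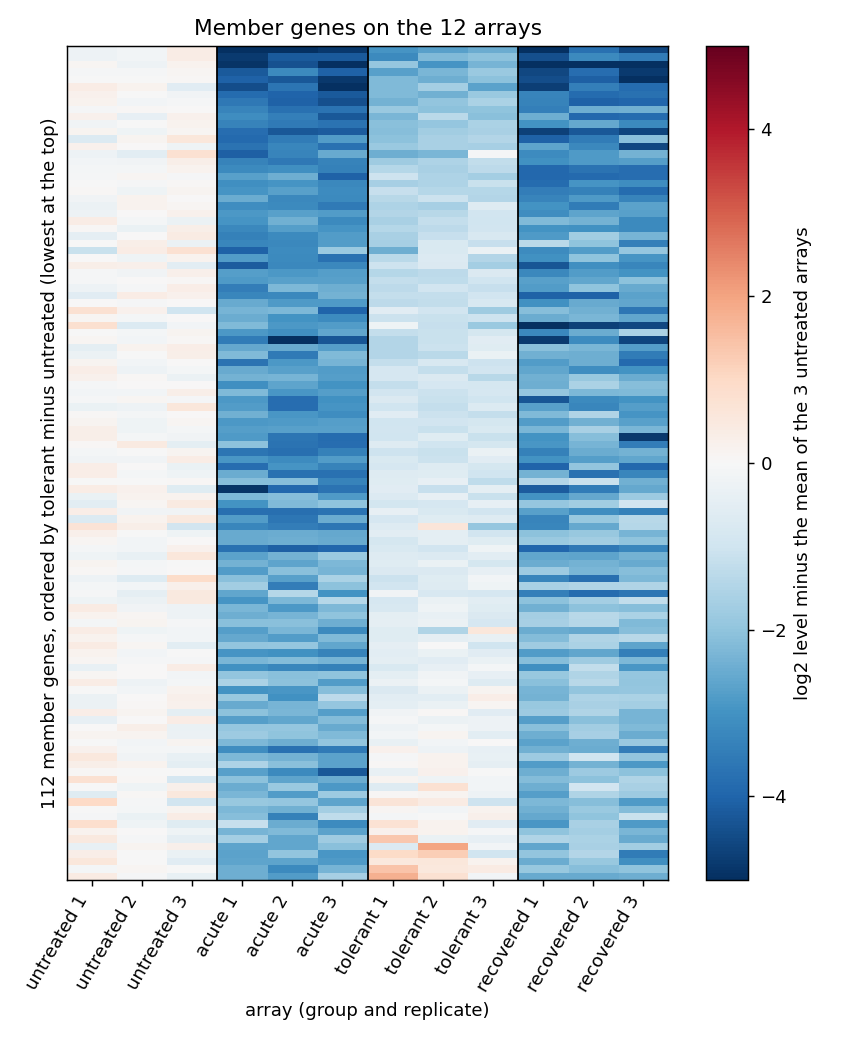
Log2 level of each of the 112 genes (rows) on the 12 arrays (columns) minus the mean of the 3 untreated arrays of that gene, with blue for lower and red for higher. The acute and recovered columns are blue for every gene, while the tolerant columns pass from blue at the top (Frat1, -2.72) to pale red at the bottom (Gm11545, 0.80).

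How many genes met the rule depended on the processing. With normexp background correction and an offset of 50, which compresses dim signals, 23 genes met the same rule, and on the authors' own values, which differ in normalization and perhaps in background correction, 54 did, of which 49 were among the 112. The acute level was well above background on all 3 arrays for 68 of the 112 genes and on none for 29. For recovered arrays the counts were 69 and 32, and for tolerant arrays 101 and 2. Where a group was below background on every array, fold changes are given as lower bounds, set against the dimmest signal called well above background, and the log2 differences are the measured ones.

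The tolerant level mostly did not reach the untreated one. Tolerant minus untreated had a median of -0.80 over the 112 genes and was below 0 in 101 of them. It lay within 0.5 of untreated in 31 genes, between 0.5 and 1 below in 36, and 1 or more below in 43, while 2 genes were over 0.5 above. limma called 44 of the 112 lower and 0 higher in tolerant than untreated cells, where it called 8.63% of all genes lower and 11.3% higher. Without adjustment, p was under 0.05 for 66 lower and 1 higher. With the replicate number as a block, 64 were called lower and 1 higher, where 18.7% and 18.8% of all genes were. Genes called in that fit alone are named as such where they are described. Without the block, 68 genes were not called. Their 95% interval in that fit lay within 1 of 0 in 22 and reached below -1 in 39, so a decrease of 1 log2 unit lies within the interval of the latter. The fit without the block ignores that arrays of the same replicate number deviated together, and intervals with the block are not given here. Expressed as the share of the acute log2 decrease that was missing in tolerant cells, the median was 72.9%, with a range of 40.3% to 134.7%. That share was under 50% in 10 genes and 100% or more in 11. For the 29 genes well above background on no acute array, the share rests on acute signals too dim to measure well. The rule favours low acute and high tolerant means, and also high untreated means, which lower tolerant minus untreated. These counts therefore describe the genes and are no independent test.

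**Figure D2:**
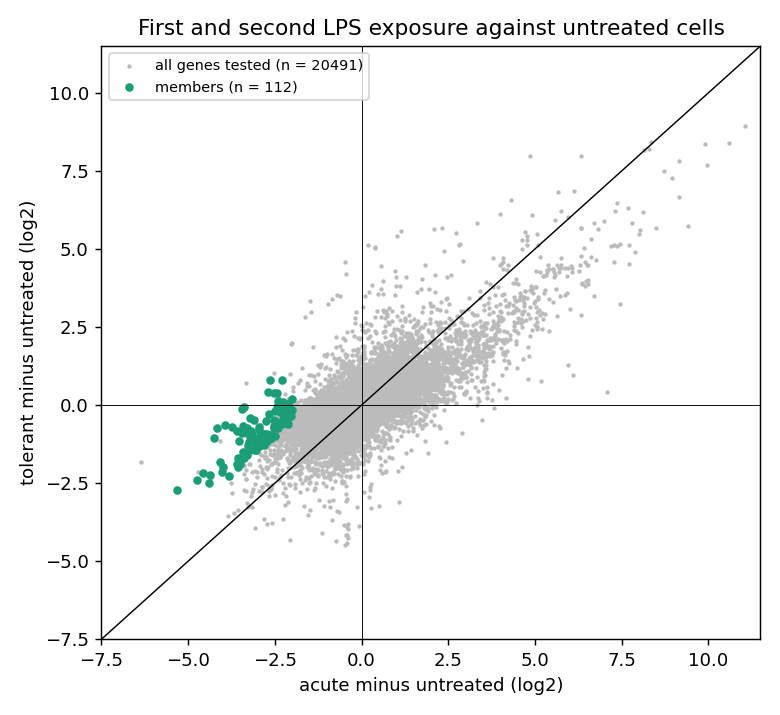
Tolerant minus untreated (vertical, log2) against acute minus untreated (horizontal, log2) for the 20491 genes tested (grey) and the 112 genes (green). The diagonal marks equal responses, and the 112 genes lie above it by 1.51 to 3.44 with 101 of them below the horizontal zero line.

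Vgll4, a cofactor that binds TEAD transcription factors and competes with YAP for them, was measured by a probe at mm9 chr6:114871350-114871409. Its level was -0.37, -0.41 and -0.07 on the untreated arrays, -4.02, -4.36 and -4.26 on the acute, -1.05, -1.23 and -0.48 on the tolerant and -4.26, -3.85 and -3.54 on the recovered arrays. Untreated and tolerant arrays thus lay above all acute and recovered arrays, and untreated arrays were 15.3-fold and tolerant arrays 9.80-fold above acute ones. Tolerant minus untreated was -0.64 ± 0.23 (adjusted p = 0.0798, limma), with the tolerant arrays all below the untreated ones, and was called with the replicate block (adjusted p = 0.0216). Recovered minus acute was 0.33 ± 0.23 (adjusted p = 0.586).

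The rest of the TEAD and Hippo list moved in mixed directions. Of 21 listed genes 14 were measured, and 3 were called lower and 6 higher in acute than untreated cells, Vgll4 included, where 15% and 14.3% of all genes were. In tolerant against acute cells 2 were called higher, Vgll4 and the kinase gene Lats2 (0.73 ± 0.15), and 4 lower, against 12% and 10.6% of all genes. Among the latter, Sav1, a scaffold of the Hippo kinases, rose by 1.87 ± 0.27 in acute cells and was -1.01 ± 0.27 in tolerant against acute cells (adjusted p = 0.0201). Mob1b (Mobkl1a on the array), an activator of the LATS kinases, rose by 1.93 ± 0.13 in acute cells (adjusted p = 9.26e-07). Tead1, a DNA-binding partner of VGLL4 and YAP proteins, rose by 1.76 ± 0.47 in acute cells (adjusted p = 0.0142), from a level well above background on 1 of 3 untreated arrays. The list's median was 0.52 for acute minus untreated and -0.17 for tolerant minus acute, against 0.02 and -0.05 over all genes.

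Bbs12 encodes a chaperonin-like protein needed to assemble the BBSome, a complex that carries membrane proteins to and from cilia. Its level was -1.62, -1.86 and -1.66 on untreated arrays, -5.21, -6.68 and -6.00 on acute, -3.17, -2.84 and -2.26 on tolerant and -6.48, -4.86 and -6.30 on recovered arrays. It was not well above background on any acute or recovered array, so untreated cells were at least 7.15-fold and tolerant cells at least 3.46-fold above acute cells. The tolerant arrays lay between the untreated arrays and all others, at -1.05 ± 0.45 from untreated (adjusted p = 0.135, and 0.12 with the replicate block, 95% interval -2.03 to -0.06).

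Other genes of the BBSome and its chaperonins differed less between tolerant and acute cells than Bbs12 did (3.20). Of 15 listed genes, all measured, 7 were called lower and 1 higher in acute than untreated cells, and 8 were called higher and 1 lower in tolerant than acute cells, with Bbs12 in both counts and the shares over all genes as above (15% and 14.3%, then 12% and 10.6%). The list's median was -0.68 for acute minus untreated and 0.65 for tolerant minus acute. Bbs4, a BBSome subunit, was at 0.06, -0.13 and -0.12 on untreated, -0.64, -0.94 and -0.82 on acute, 0.40, 0.48 and 0.29 on tolerant and -0.38, -0.18 and -0.48 on recovered arrays. Its tolerant arrays were the highest of the 4 groups without overlap, 1.19 ± 0.14 above acute (adjusted p = 0.00022) and 0.45 ± 0.14 above untreated (adjusted p = 0.0431). Wdpcp (AV249152 on the array), a planar polarity effector of cilia, was 0.80 ± 0.18 higher in tolerant than acute cells (adjusted p = 0.00866). Bbs10, another chaperonin-like gene, was lower than untreated in acute, tolerant and recovered cells (-1.09 ± 0.18, -1.93 ± 0.18 and -2.26 ± 0.18), and its tolerant minus acute difference was -0.84 ± 0.18 (adjusted p = 0.00588). Lztfl1, a BBSome regulator, was higher in each LPS group than in untreated cells. Ttc30a2, an intraflagellar transport gene among the 112, had a tolerant minus untreated difference of -1.14 ± 0.31 (adjusted p = 0.0232).

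**Figure D3:**
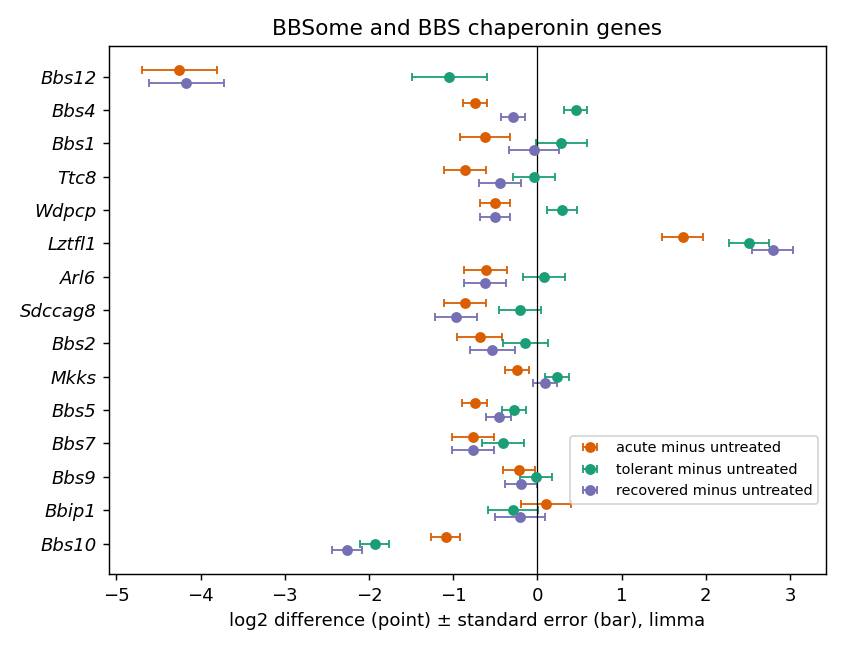
Log2 difference from untreated cells (points) with its standard error (bars) for the 15 BBSome and BBS chaperonin genes in acute, tolerant and recovered cells, ordered by tolerant minus acute. Bbs12 has the largest decrease (-4.25 in acute cells), Bbs4 is above 0 only in tolerant cells, and Lztfl1 is above 0 in all 3 groups.

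Transcription and chromatin regulators made up 15 of the 112. In tolerant against untreated cells 7 were called lower and 8 were not called. Over the 112 genes 44 were called lower there, and 8.63% of all genes tested were. Lyl1, a basic helix-loop-helix factor of blood cells, was at 4.77, 4.86 and 5.38 on untreated, 0.22, 0.80 and 0.79 on acute, 1.82, 2.80 and 2.94 on tolerant and 0.62, 1.82 and 1.5 on recovered arrays. Its untreated arrays were 21.1-fold above the acute ones, and tolerant cells stayed -2.48 ± 0.36 from untreated (adjusted p = 0.000584). The lowest tolerant array of Lyl1 equalled the highest recovered array at 2 decimals, so those groups met. Cebpa, a driver of myeloid differentiation, was at 1.38, 1.86 and 2.24 on untreated, -1.54, -1.34 and -0.98 on acute, 0.20, 0.69 and 1.03 on tolerant and -1.0, 0.09 and -0.48 on recovered arrays. Its tolerant arrays were all above the recovered and below the untreated arrays (-1.19 ± 0.32 from untreated, adjusted p = 0.0221).

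Tcfeb (current symbol Tfeb), which activates lysosome genes, was at 0.79, 0.87 and 1.01 on untreated, -2.77, -2.87 and -2.50 on acute, -0.16, -0.22 and 0.56 on tolerant and -2.50, -1.61 and -1.49 on recovered arrays. Its tolerant arrays were all above the recovered ones and 6.83-fold above the acute ones, and all below the untreated ones, a difference called with the replicate block alone (-0.83 ± 0.28, adjusted p = 0.0579, and 0.0101 with it). Mnt, a MAX partner that opposes MYC, remained below its untreated level in tolerant cells by the fit (-1.15 ± 0.17, adjusted p = 0.000739). Klf10, a Kruppel-like repressor induced by TGF-beta, was at 2.28, 2.18 and 1.5 on untreated and 2.06, 2.15 and 1.56 on tolerant arrays, which overlapped, and at 0.45, -0.10 and -0.67 on acute and -0.82, -0.37 and -0.87 on recovered arrays. Tolerant minus untreated for Klf10 was -0.07 ± 0.30 (adjusted p = 0.921, 95% interval -0.74 to 0.60). Zbtb1, a zinc finger repressor, had a difference of -0.17 ± 0.25 (interval -0.73 to 0.39). Cbx8, a Polycomb protein, was called lower (-1.90 ± 0.43, adjusted p = 0.00851). Zkscan4 was not well above background on any LPS array. Per2, a repressor of the circadian clock, varied widely, with untreated arrays from -4.34 to -2.70 and tolerant arrays from -5.32 to -2.77.

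Receptors and ligands numbered 6. Pdgfb, the B chain of platelet-derived growth factor, was at 2.20, 2.40 and 2.27 on untreated, -0.15, -0.88 and -0.04 on acute, 3.73, 2.81 and 2.70 on tolerant and 0.39, 0.17 and 0.29 on recovered arrays. Every tolerant array was above every untreated one, and tolerant cells were 10.8-fold above acute cells, yet tolerant minus untreated was not called (0.79 ± 0.28, adjusted p = 0.0715) except with the replicate block (adjusted p = 0.0321). Cxcr4, the receptor for the chemokine CXCL12, was at 0.99, 1.16 and 1.0 on untreated, -1.65, -1.38 and -2.99 on acute, 0.01, -0.51 and -0.65 on tolerant and -2.87, -2.82 and -2.75 on recovered arrays. Tolerant Cxcr4 lay between untreated and the other groups on every array (-1.43 ± 0.34 from untreated, adjusted p = 0.0123). S1pr1, a receptor for sphingosine 1-phosphate, had a tolerant minus untreated difference of -1.17 ± 0.32 (adjusted p = 0.0239), and Cd300lb, an activating receptor of myeloid cells, one of -1.31 ± 0.23 (adjusted p = 0.00185). Sucnr1, the succinate receptor, had 0.11 ± 0.57, an interval of -1.14 to 1.35 that leaves a difference in either direction possible. Celsr3, an atypical cadherin, was at -1.64, 1.01 and -1.09 on tolerant arrays, 1 of them above and 1 below the untreated range of -1.33 to -0.72.

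Kinases, phosphatases and signalling adaptors numbered 12. Of them 3 were called lower in tolerant than untreated cells, against 44 of the 112 and 8.63% of all genes. Frat1, which binds the kinase GSK3, had the largest acute decrease of the 112. It was at -1.05, -0.93 and -0.42 on untreated, -6.17, -6.58 and -5.62 on acute, -3.76, -3.52 and -3.29 on tolerant and -6.23, -4.54 and -5.36 on recovered arrays. Acute and recovered arrays were not well above background, so untreated cells were at least 13.5-fold and tolerant cells at least 2.04-fold above acute cells. Tolerant cells stayed -2.72 ± 0.38 from untreated (adjusted p = 0.000478), with no overlap. Arrdc3, an arrestin-like protein that acts in receptor traffic, was at -0.86, -1.05 and -1.81 on untreated, -5.65, -4.90 and -6.90 on acute, -3.46, -2.93 and -3.90 on tolerant and -5.96, -4.64 and -5.10 on recovered arrays. Its tolerant arrays too lay between the untreated arrays and all others (-2.19 ± 0.50 from untreated, adjusted p = 0.009).

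Sla, an adaptor that dampens antigen receptor signalling, was at 4.93, 4.22 and 3.33 on untreated, 2.13, 1.52 and 1.68 on acute, 4.32, 3.97 and 4.04 on tolerant and 1.98, 2.12 and 2.64 on recovered arrays. Its tolerant arrays lay within the untreated range (-0.05 ± 0.35, 95% interval -0.82 to 0.71). Dgkz, a diacylglycerol kinase, likewise overlapped untreated cells (-0.20 ± 0.21, interval -0.67 to 0.27). Ptpn22, a phosphatase of immune receptor signalling, was lower by more (-1.10 ± 0.59) but varied between arrays (adjusted p = 0.241, and 0.000877 with the replicate block). Tesk2, a kinase that phosphorylates cofilin, had tolerant arrays at 0.54, 0.82 and -1.42 around the untreated range of -0.74 to -0.08, and 7.60-fold more signal in tolerant than acute cells. Arhgap27 differed little from untreated in tolerant cells (0.11 ± 0.19, interval -0.31 to 0.53), and Arhgef4 was called lower (-2.28 ± 0.32, adjusted p = 0.000449).

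**Figure D4:**
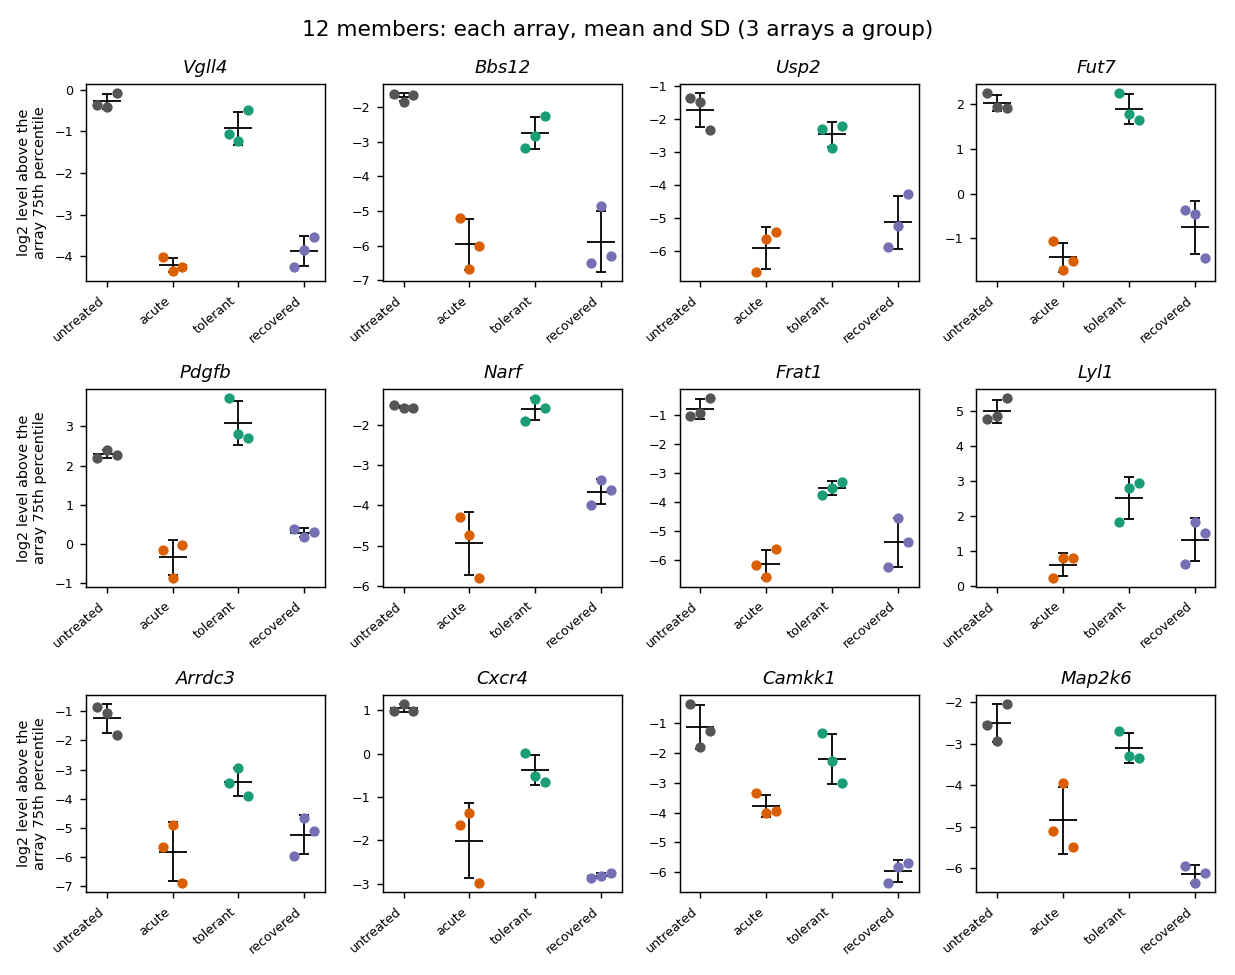
Log2 level relative to the 75th percentile of the array for 12 of the 112 genes on each array (points), with the mean and SD of the 3 arrays of a group (bars), each panel on its own scale. Pdgfb, Fut7 and Narf in tolerant cells reach or pass the untreated arrays, and Frat1, Lyl1 and Arrdc3 lie between. The recovered arrays of Camkk1 and Map2k6 lie below the acute ones. Those of Camkk1 were not above background. Map2k6 was not called in that comparison, and its acute and recovered levels were mostly not above background.

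Of 5 enzymes that build or trim glycans, Fut7 was nearest its untreated level in tolerant cells. It encodes the fucosyltransferase that completes sialyl Lewis x, a selectin ligand. Its level was 2.24, 1.93 and 1.91 on untreated, -1.06, -1.71 and -1.52 on acute, 2.26, 1.78 and 1.64 on tolerant and -0.38, -0.45 and -1.44 on recovered arrays. Tolerant and untreated arrays overlapped (-0.14 ± 0.29, adjusted p = 0.813, interval -0.78 to 0.50), and tolerant arrays lay 3.32 log2 units above acute ones. B3gnt8, which extends N-glycans, was at 2.10, 2.10 and 2.56 on untreated, -1.07, -1.31 and -1.08 on acute, 0.48, 0.72 and 1.02 on tolerant and -0.78, -0.57 and -0.51 on recovered arrays, with no overlap of tolerant arrays with any other group. B3gnt8 and Engase, which cuts N-glycans from proteins, were called lower in tolerant than untreated cells (-1.51 ± 0.18 and -1.32 ± 0.18). Lfng, which modifies Notch receptors, and Chst12, a chondroitin sulfotransferase, were called with the replicate block alone (-0.96 ± 0.33 and -0.52 ± 0.22, adjusted p = 0.0477 and 0.0121 there), and their probes lay 90.1 kb apart on chromosome 5.

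Usp2, a deubiquitinase, had the largest tolerant minus acute difference (3.44). It was at -1.34, -1.49 and -2.31 on untreated, -6.63, -5.63 and -5.42 on acute, -2.30, -2.88 and -2.20 on tolerant and -5.86, -5.22 and -4.27 on recovered arrays. It was below background on every acute and recovered array, so tolerant cells were at least 4.26-fold above acute cells, and tolerant and untreated arrays overlapped. Narf, a prelamin-binding protein, was at -1.51, -1.58 and -1.57 on untreated, -4.29, -4.73 and -5.80 on acute, -1.91, -1.36 and -1.57 on tolerant and -4.00, -3.38 and -3.61 on recovered arrays. Tolerant arrays of Narf spanned the untreated ones (-0.06 ± 0.33, interval -0.78 to 0.66) and were at least 7.62-fold above acute arrays. Among the ubiquitin ligase genes, Klhl21 and Nhlrc1 were called lower in tolerant than untreated cells and Ccnf was with the replicate block alone (-0.94 ± 0.33, adjusted p = 0.0657, and 0.0227 with it).

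Of the 64 genes placed in no role group, 25 were called lower in tolerant than untreated cells, where 8.63% of all genes were. BC031353 (current symbol Fam214a) was at 1.01, 0.68 and 1.08 on untreated, -3.96, -3.43 and -4.07 on acute, -1.02, -2.01 and -1.41 on tolerant and -4.12, -4.21 and -4.16 on recovered arrays, so that its tolerant arrays stood apart from both sides. Cdca7, a gene of the cell cycle and a MYC target, had a tolerant minus untreated difference of -2.22 ± 0.29 (adjusted p = 0.00027), and Fam78a one of -1.83 ± 0.20. A030009H04Rik (current symbol Rnf227) was not well above background on any LPS array, and Acot6 was so on 1 tolerant array only. Nlrp1b, an inflammasome sensor, was at -0.87, -0.20 and 0.25 on untreated and -0.20, -0.13 and -0.51 on tolerant arrays, which overlapped, and at or below -1.77 on every acute and recovered array. Angptl4, an inhibitor of lipoprotein lipase, differed by -1.60 ± 0.62 in tolerant against untreated cells without being called (adjusted p = 0.0968, and 0.00406 with the replicate block). Some of the largest tolerant minus acute differences belonged to entries known only by transcript or model names, ENSMUST00000105034 (3.12), Gm11545 (3.09) and C130050O18Rik (3.03).

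Recovered and acute cells were compared with each other next, a difference the rule did not use directly. Recovered minus acute had a median of 0.24 over the 112 genes, against 0.04 over all genes, and was above 0 in 80. limma called 0 higher and 1 lower, where it called 1.46% of all genes higher and 0.581% lower. At an unadjusted p under 0.05, 23 were higher and 5 lower. With the replicate number as a block, 16 of the 112 were called higher and 4 lower, where 5.99% of all genes were called higher and 4.75% lower. The called genes then included Narf (adjusted p = 0.0348), Tcfeb (0.0286), Cebpa (0.025), Lyl1 (0.0473), B3gnt8 (0.0327), C130050O18Rik (0.0193), Arhgap27 (0.0477) and A130010J15Rik (0.0106) among the higher, and D230044B12Rik (0.025) and Engase (0.036) among the lower. In the fit without the block, the 95% interval lay within 1 of 0 for 50 of the 111 genes not called.

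The gene called lower was Camkk1, a kinase that activates calmodulin-dependent kinases. It was at -0.36, -1.82 and -1.28 on untreated, -3.35, -4.02 and -3.95 on acute, -1.36, -2.29 and -3.01 on tolerant and -6.37, -5.81 and -5.69 on recovered arrays. Recovered arrays were below all others and not above background, with a measured difference of -2.18 ± 0.44 from acute (adjusted p = 0.0375). Map2k6, the kinase upstream of p38, was at -5.11, -3.95 and -5.50 on acute and -5.94, -6.37 and -6.11 on recovered arrays, which did not overlap, but was not called (-1.29 ± 0.37, adjusted p = 0.113) and was above background on only 1 of these 6 arrays. At the other end, Narf was 1.28 ± 0.33 higher in recovered than acute cells (adjusted p = 0.0758), with no overlap between those arrays. Narf was not well above background on any acute array, so the size of its difference rests on acute signals too dim to measure well. The next highest differences, of Per2 (1.01 ± 0.64), Susd3 (0.87 ± 0.38), 1810034E14Rik (0.86 ± 0.37) and A130010J15Rik (0.85 ± 0.34), and the next lowest, of D230044B12Rik (-0.98 ± 0.48), Cxcr4 (-0.81 ± 0.34) and 2900005J15Rik (-0.63 ± 0.38), were not called without the block. Recovered minus tolerant had a median of -1.81, and limma called 103 of the 112 lower and 0 higher, where it called 9.57% of all genes lower and 11% higher. That difference is made of the group means that chose the genes. The same holds for recovered minus acute.

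To read the pattern on arrays that had not chosen it, the rule was applied to 2 replicate numbers and the differences were read on the third, with 1 array a group and no test. With replicate 1, 2 or 3 held out, the rule found 121, 124 and 110 genes. In the held-out arrays tolerant was above acute in 119, 124 and 109 of them. The share was 48.2%, 52.1% and 51.1% over 16590, 16663 and 16368 eligible genes, smaller sets than the 19417 above. All 3 thresholds were passed by 69, 67 and 72 of the genes found (57%, 54% and 65.5%), against 0.681%, 0.63% and 0.843% of those eligible genes. The held-out medians of tolerant minus acute were 1.67, 1.98 and 1.91. Replicate 3 was also the only one scanned on the second day.

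**Figure D5:**
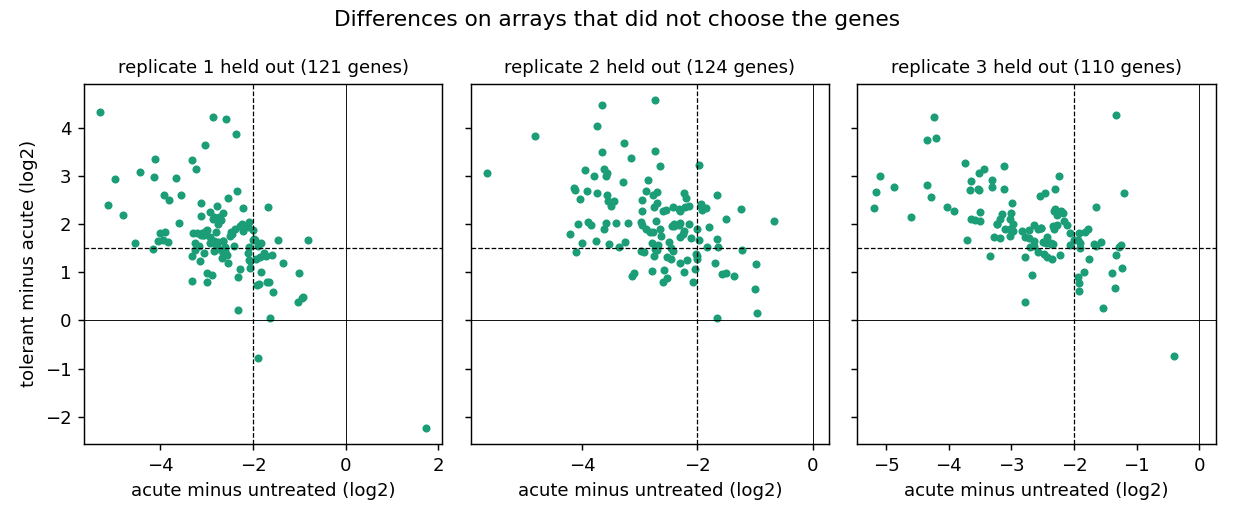
Tolerant minus acute (vertical, log2) against acute minus untreated (horizontal, log2) in the held-out replicate, for genes chosen on the other 2 replicate numbers; dashed lines mark the thresholds 1.5 and -2. Points lie above the horizontal zero line in 119 of 121, 124 of 124 and 109 of 110 genes.

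Second probes gave another reading of the same RNA, on the same arrays that chose the genes, and are no independent samples. Of the 112 genes, 19 had a further probe above background on the untreated arrays, 24 probes in all. Acute and recovered lay below untreated and tolerant above acute at 22 of the 24 (91.7%), against 30.7% of 7007 further probes of other genes, and 11 passed all 3 thresholds (45.8% against 0.528%). The second Fut7 probe showed 4.09 for tolerant minus acute, that of Pdgfb 2.58 and that of Zbtb1 2.60. The exceptions were a probe of Fam78a, with tolerant minus acute at -0.59, and 1 of 2 further probes of Tmem104, at -0.01. The 2 further probes of Susd3 kept the direction with smaller tolerant minus acute differences, 0.45 and 0.85 against 1.77 at the probe used.

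Probe positions on mm9 were spread over many chromosomes. Chromosome 11 carried 22 of the 112 genes (19.6%) and 7.53% of the genes tested, a share that was not tested. Pairs of probes within 100 kb were Chst12 with Lfng, Acot6 with C130039O16Rik (38.3 kb), 1600002H07Rik with Ccnf (7.6 kb), 4930432F04Rik with C130050O18Rik (46.0 kb), and 6720489N17Rik with ENSMUST00000091563, whose probes were 337 bases apart. The median length of the matched genes was 13609 bases, against 19106 bases for all genes tested that were matched.

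Other pathway lists contained few of the 112 genes and moved in mixed directions. Among FOXO factors and their target genes 22 of 24 were measured. Of these, 6 were called higher and 7 lower in acute than untreated cells, where 14.3% and 15% of all genes were. In tolerant against acute cells 3 were called higher and 6 lower, where 12% and 10.6% of all genes were. S1pr1 was the only one of the 112 on that list, while Bmf and Sesn1 met the differences and were set aside by name. Bmf, a pro-death BCL2-family gene, was at 0.58, 0.08 and 0.20 on untreated, -6.59, -5.86 and -5.76 on acute, -1.54, -1.62 and -1.47 on tolerant and -6.62, -6.58 and -5.52 on recovered arrays. Its tolerant arrays lay between the untreated arrays and all others, and it was not well above background in acute or recovered cells, so that untreated cells were at least 28.6-fold and tolerant cells at least 8.03-fold above acute cells. Cited2, a transcription cofactor, went the opposite way, 2.96 ± 0.32 higher in acute than untreated and -2.58 ± 0.32 in tolerant against acute cells (adjusted p = 0.000331).

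The BMP and TGF-beta list, 25 of 26 measured and none among the 112, had 8 genes called higher and 2 lower in tolerant than acute cells. Smad6, Smad7, Id1 and Id3, targets and inhibitors of BMP signalling, were higher in tolerant than both untreated and acute cells (tolerant minus acute of 5.08 ± 0.72, 3.98 ± 0.40, 3.39 ± 0.34 and 4.20 ± 0.59). Smad6 was not well above background on any untreated or acute array and Smad7 on no acute array, so tolerant cells were at least 10.6-fold and 4.42-fold above acute cells for them. Of 17 measured KLHL, KBTBD and BTB adaptors 6 were called higher and 1 lower in tolerant than acute cells, among them Klhl21 and, just outside the recovered threshold, Klhl36 (1.67 ± 0.15). Of 18 RGS and G protein regulators 8 were lower and 4 higher in acute than untreated cells, against 15% and 14.3% of all genes. In tolerant against acute cells 5 of them were higher and 5 lower. Of 18 repressors and corepressors 3 were called higher and 5 lower in tolerant than acute cells, with Hey1 (1.74 ± 0.36) and Hhex (-2.15 ± 0.27) at opposite ends. The WNT list had 2 higher and 3 lower of 18, the phosphoinositide 3-kinase list 2 higher and 5 lower of 23, and the RNA decay list 2 higher and 3 lower of 21. Over all genes tested, 12% were higher and 10.6% lower in that comparison.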

How the data were processed

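RNA of 12 macrophage samples was hybridised to single-colour arrays. The deposited intensity of each spot came from Agilent Feature Extraction 10.7.3.1, which per the file headers subtracted background and removed spatial trends array by array; probe positions are on mm9. The authors' deposited matrix holds log2 values (column median 5.34, 12 of 12 columns matching their own array best), made with limma per the submitters' processing notes. All its columns have the same quartiles, its scale and direction follow the scanner values, its background correction is not given in the sources used here, and it served as an alternative.

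Control and outlier spots (135 to 233 per array) were left out, log2 intensity was scaled by the 75th percentile, and each gene took its brightest probe. Genes well above background on all 3 arrays of a group (20491) were fitted together with limma 3.58.1 in R 4.3.3 (lmFit, eBayes), two-sided, with Benjamini-Hochberg adjustment over all genes and a call at adjusted p under 0.05. All 112 genes passed this filter through their untreated arrays. The 3 arrays of a group limit the precision. The fit was tested on simulated data. P-values measure the spread between independent experiments per the labels; whether animals differed is not stated.

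The genes, gene lists, motifs and tests were chosen with earlier results of these data known, and the role groups after their values were seen. Named genes were Vgll4, Bbs12, the 10 largest acute decreases, the 10 largest tolerant minus acute differences, the 5 highest and 5 lowest in tolerant minus untreated and in recovered minus acute, those nearest each threshold, up to 4 called genes per list, and Tnf, Il6 and Cxcl10 as a check of the LPS response; other genes named for their role were picked after their values were seen. Symbols came from RefSeq GRCm38.p6 (101 of 112 matched), promoters from the same tables. Exons at the probes were not analysed here.

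Arrays of the same replicate number deviated together (18 pairs, r from 0.276 to 0.773 across genes). Replicate number and slide coincided on every array except recovered replicate 1, and only replicate 3 was scanned on the second day. Experiment, slide and scan day were therefore not separated by the replicate block. Alternatives were other background, normalization, probe and filter choices, slide or replicate as a block, a variance trend, and leaving out each array or the second scan day. Figures were drawn with matplotlib 3.10.9. Some items are not reported here.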

Additional observations from a re-analysis of the deposited data

How the results depend on the processing

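The rule found at most 120 genes when any 1 array was left out, 23 with normexp background correction and 54 on the authors' values, and 19 of the 112 were found in all 20 settings tried. The count called higher in recovered than acute cells (0) was 16 with the replicate block, 7 with slide as a block, 2 on the authors' values and 2 without the second scan day. The count called lower (1) was 4 with the replicate block and 2 with slide as a block. Leaving out single arrays gave 0 to 1 for each. The replicate block moved no other count of the 112 genes by over 1.5 times (44 to 64 for lower in tolerant than untreated cells). Single genes reversed in recovered minus tolerant, A030009H04Rik with normexp (0.06) and Csf1r on the authors' values (-0.30), and the cause was not tested. Without untreated replicate 1, Rgs3 stood at -0.093 in tolerant minus acute, where leaving out single arrays gave up to 1.46. In recovered minus untreated Rgs3 then stood at 0.002, where leaving out single arrays gave down to -1.62. The probe of a gene was chosen again when arrays were left out. Tolerant minus acute uses no untreated array, so these Rgs3 values belong to another probe and are no reversal at the probe used. Of all genes, 2928 were called higher and 3067 lower in acute than untreated cells, against 2762 and 4245 after quantile normalization and 3479 and 5855 on the authors' values. Signals below background limit 29 acute and 32 recovered levels of the 112 to bounds.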
